A study of Mus musculus with 2 samples.

Results

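Mesothelial cells form the single cell layer that lines the peritoneal cavity and covers the bowel and its mesentery. They were selected on the measured counts of their RNA, in single-cell libraries of mouse bowel and of the mesenteric adipose tissue (MAT) that runs beside it. Barcodes with at least 500 UMIs of genes (a UMI, unique molecular identifier, marks 1 captured RNA molecule) and 300 genes were kept where mitochondrial genes took less than 20% of the UMIs. A kept cell was a member when Upk3b, Msln, Upk1b, Lrrn4 and Muc16 together gave at least 3 UMIs and when Ptprc, Epcam and Pecam1, which mark leukocytes, epithelium and endothelium, gave none. This held for 289 of 51389 kept cells, 66 in the colotomy library and 223 in the sham library. Fibroblast cells of the same libraries, set beside them, had at least 5 UMIs of Dcn, Col1a2, Col3a1 and Lum together and none of the 5 mesothelial or 3 excluding genes, and numbered 3394 in the colotomy library and 2739 in the sham library.

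The mice were of the B6/C57 strain, 8 to 12 weeks old and sampled on postoperative day 14 of a colotomy, a surgical incision of the colon, or of a sham operation. The mRNA was sequenced as 1 library per operation, each a pool of cells digested from both tissues and stained with hashtag antibodies, and the number and sex of the mice are not given in the sources used here. With 1 library per operation there is no replicate, so a difference between operations is one between 2 libraries and has no test. Every interval below is a 95% interval that covers counting error only.

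The mesothelium is of mesodermal origin but carries epithelial features: keratins, tight junctions, apical mucins and a thin basement membrane. It is known for secreting lubricating glycoproteins, complement proteins, protease inhibitors and regulators of clotting and fibrin removal, and its loss or injury precedes the adhesions that can follow abdominal surgery. In the embryo it expresses Wt1 and is a source of mesenchymal cells.

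The promoters of the gate genes are shown first because these genes define the cells. RefSeq windows of build GRCm38.p6, from 250 bases before to 50 after the annotated start, were found for 9 of the 17 genes that gate the cells or lead the comparison below. The windows of Upk3b (chr5:136038246-136038545, plus strand), Lrrn4 (chr2:132880813-132881112, minus strand) and Muc16 (chr9:18674554-18674853, minus strand) read 5′ to 3′ as follows, with the letters GGAATG or their reverse complement, the core bound by TEAD factors (partners of the mechanosensitive coactivator YAP), in capitals.
Upk3b: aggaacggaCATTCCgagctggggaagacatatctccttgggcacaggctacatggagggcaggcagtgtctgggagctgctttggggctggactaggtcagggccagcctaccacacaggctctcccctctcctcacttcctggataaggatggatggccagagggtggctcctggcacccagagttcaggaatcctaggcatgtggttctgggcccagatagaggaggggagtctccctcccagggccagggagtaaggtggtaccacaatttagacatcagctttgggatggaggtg
Lrrn4: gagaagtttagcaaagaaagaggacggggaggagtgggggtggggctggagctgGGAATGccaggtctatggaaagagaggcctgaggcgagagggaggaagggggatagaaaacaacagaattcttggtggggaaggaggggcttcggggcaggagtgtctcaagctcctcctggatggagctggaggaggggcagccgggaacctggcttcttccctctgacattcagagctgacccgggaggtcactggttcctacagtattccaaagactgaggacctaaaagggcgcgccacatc
Muc16: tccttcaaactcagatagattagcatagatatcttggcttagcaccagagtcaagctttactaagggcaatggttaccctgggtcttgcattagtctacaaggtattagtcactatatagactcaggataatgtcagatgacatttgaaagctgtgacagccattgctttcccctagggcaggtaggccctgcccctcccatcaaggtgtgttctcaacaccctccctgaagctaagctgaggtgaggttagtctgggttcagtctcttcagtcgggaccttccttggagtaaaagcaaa
The core lay 241 bases before the start of Upk3b and 196 before that of Lrrn4, and was not among the letters of the Muc16 window. It occurred at 3 of the 9 genes (Gpm6a is the other, 125 bases before 1 of its 2 starts), and in 14.7% of all 32851 windows. The RefSeq start of Gpm6a with the core lies before the GENCODE M21 gene. Other motifs were searched on both strands as well. AGATAA, the letters of GATA factors, was in none of the 9 genes' windows and in 11.2% of all windows. The AP-1 site TGANTCA was in none of them and in 7.81% of all. The core GCGTGGG of the EGR and WT1 type was in none and in 5.04% of all. The GC box GGGCGG was found in 1 window each of 6 genes and in 35.7% of all, and overlapped no TEAD core. A match of letters is a description and not evidence of binding.

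Depth set much of what could be seen. The members held 65468 UMIs in the colotomy library and 411081 in the sham library, with a median of 899.5 and 1685 per cell, so that a gene with no UMI in all members could still be present at 45.8 CPM (UMIs per 1000000 UMIs of all genes) in the colotomy library and 7.30 CPM in the sham library. Fibroblast sums were larger, 2795130 and 4086896 UMIs. Libraries overlapped in 190 barcode names, none of them a member in both. The transcript Gm42418, which lies over ribosomal RNA, took 14.2% of the members' UMIs in the colotomy library and 7.81% in the sham library, against 10.2% and 7.55% in fibroblast cells, and mitochondrial genes took 5.78% and 6.14% against 6.72% and 5.77%.

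Members made up 0.714% of the colotomy library's kept cells (0.552% to 0.907%) and 0.529% of those in the sham library (0.462% to 0.603%). A gate on a UMI number admits more of the deeper cells, and the values moved with depth in both libraries. After thinning of every cell to 1000 UMIs, 22 of 2735 cells passed in the colotomy library and 189 of 29701 in the sham library, or 0.804% and 0.636%. Thinned to 500 UMIs, 41 of 9246 colotomy cells and 129 of 42143 sham cells passed. With the gate raised to 5 UMIs the order of the libraries turned round, to 0.281% in the colotomy library and 0.354% in the sham library. The gate also lost cells with a UMI of another lineage: 21 of 87 colotomy cells and 292 of 515 sham cells with at least 3 gate UMIs were left out by Ptprc, Epcam or Pecam1, of which 262 sham cells carried Ptprc. No doublet caller was run.

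The 5 gate genes chose the members, and their values are a description. Upk3b, a uroplakin of the apical membrane, was found in 63 of 66 colotomy members and 217 of 223 sham members. Msln (mesothelin, a surface glycoprotein that binds Muc16) was found in 43.9% of colotomy members and 57.4% of sham members, and Lrrn4, a leucine-rich repeat membrane protein, in 56.1% and 65.9%. Upk1b, a tetraspanin partner of uroplakins, was found in 33.3% and 43.0%, and the membrane mucin Muc16 in 21.2% and 42.6%. At least 2 of the 5 genes were found in 92.4% of colotomy members and 94.6% of sham members. The genes lie on chromosome 5 (Upk3b, chr5:136038496-136046487), 17 (Msln, chr17:25748613-25754378), 16 (Upk1b, chr16:38773184-38800328), 2 (Lrrn4, chr2:132868305-132880891) and 9 (Muc16, chr9:18495455-18674530; GENCODE M21, GRCm38), each protein coding.

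Cells just inside the threshold were weaker in other mesothelial markers than cells well inside it. Over 10 markers that the gate did not use, cells with exactly 3 gate UMIs and none of the 3 excluding genes held 2048 CPM in the colotomy library (22 cells) and 2405 CPM in the sham library (38 cells), while cells with 2, just outside it, held 2967 CPM (47 cells) and 3058 CPM (51 cells). Cells with 6 or more held 7558 CPM (11 cells) and 6690 CPM (116 cells), and cells with none 1793 CPM (5761 cells) and 392 CPM (10708 cells). In the colotomy library the cells with 3 gate UMIs thus stood near the cells with none. At least 2 of the 10 markers were seen in 27.3% of colotomy cells and 71.1% of sham cells with 3 gate UMIs.

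Colotomy cells with 3 gate UMIs were weak in other markers, as given above. Over the members summed, the label of mesothelial cells held against genes outside the gate. Of 28 such identity genes, 19 had the 30 UMIs over both sums that were asked of a counted gene in each library. Among these 19, the members were at least 2-fold above fibroblast cells in 15 in the colotomy library and in 16 in the sham library, and in none were they 2-fold below. Over all genes tested, 12.6% and 7.07% were 2-fold higher in members (9227 and 10475 genes, gate genes of both cell types left out). The median log2 ratio of the list was 2.04 and 2.84, beside 0.09 and -0.04 over all genes. Wt1, the transcription factor of mesothelial precursors, stood at 321 CPM in members of the colotomy library and 272 CPM in those of the sham library, against 106 and 58.5 CPM in fibroblast cells. Its log2 ratio was 1.60 (0.89 to 2.24) and 2.22 (1.88 to 2.55). Krt19, Krt7, Nkain4, Rspo1 and Podxl were among those above fibroblast cells in both libraries. Gata6, Efemp1 and Pdpn, which fibroblast cells also carried, were within 2-fold. Bnc1 (basonuclin 1) was too sparse to count, with 3 and 26 UMIs in members and 3 and 1 in fibroblast cells.

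RNA of fibroblast genes was present in nearly every member. At least 5 UMIs of Dcn, Col1a2, Col3a1 and Lum were held by 60 of 66 colotomy members and 209 of 223 sham members, against 19.2% and 8.43% of T and B lymphocytes of the same libraries. Dcn (decorin, a small collagen-binding proteoglycan) was near the fibroblast level, 9684 and 7969 CPM in members of the colotomy and sham libraries, and 8866 and 8242 CPM in fibroblast cells. The other gate genes of fibroblasts were lower in members: Col1a2 had 1848 and 1182 CPM, against 9396 and 3215 CPM, and Lum (lumican) 229 and 117 CPM, against 2113 and 1036 CPM. In lymphocytes Dcn stood at 1147 CPM in the colotomy library and 598 CPM in the sham library. Whether the Dcn of members is their own or came with fibroblast RNA was not tested.

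Markers of several other cell types were at 0 or near or below the fibroblast level, and those of 2 types stood higher in members of both libraries. All 5 adipocyte markers (Adipoq, Plin1, Cidec, Lep, Plin4) were at 0 in members of both libraries. Of 4 glial markers none was found in colotomy members and 1 in sham members. Vascular endothelial markers summed to 153 CPM in colotomy members and 85.1 CPM in sham members, against 50.8 and 32.5 CPM in fibroblast cells, with Pecam1 at 0 by the rule. Lymphatic endothelial markers were higher in colotomy members only, with 153 and 46.2 CPM against 55.1 and 46.5 CPM. Goblet markers summed to 214 and 426 CPM, against 937 and 493 CPM. Smooth muscle and pericyte markers summed to 45.8 and 94.9 CPM, against 184 and 220 CPM. The 3 markers of interstitial cells of Cajal, which include Ano1, summed to 565 CPM in colotomy members and 489 CPM in sham members, against 25.04 and 32.3 CPM in fibroblast cells, with the defining marker Kit at 0 UMIs in colotomy members and 4 in sham members. Plasma cell markers summed to 1986 and 7354 CPM, against 10186 and 6600 CPM, and macrophage markers to 1023 and 287 CPM, against 726 and 302 CPM. The neutrophil markers summed to 1146 CPM in colotomy members and 12.2 CPM in sham members, against 1418 and 68.5 CPM in fibroblast cells, so that they were higher in the colotomy library in both cell types. The part of any of these in the results below was not tested.

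The genes with the largest mesothelial excess in both libraries included membrane proteins, junction proteins and a growth factor. Each of the 12 was within 2-fold between colotomy and sham. The rule favoured this, as it asked for a high level in members of both libraries. Over all genes compared between operations in members, only 6.13% were 2-fold higher after colotomy and 12.6% lower. By the smaller of the 2 ratios, among genes of at least 100 CPM in members of both libraries, the 12 were Pkhd1l1, Gpm6a, Lgals7, Ano1, Podxl, Nkain4, Fgf1, Krt7, Abcb1b, Cxadr, Cav1 and C2. Pkhd1l1, which encodes a very large membrane protein related to fibrocystin, had 367 CPM in members of the colotomy library and 302 CPM in those of the sham library, against 7 UMIs in all fibroblast cells of each library. Gpm6a (chr8:54954843-55060871), a membrane glycoprotein best known in neurons, had 535 and 671 CPM, against 6.80 and 2.45 CPM.

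**Figure D1:**
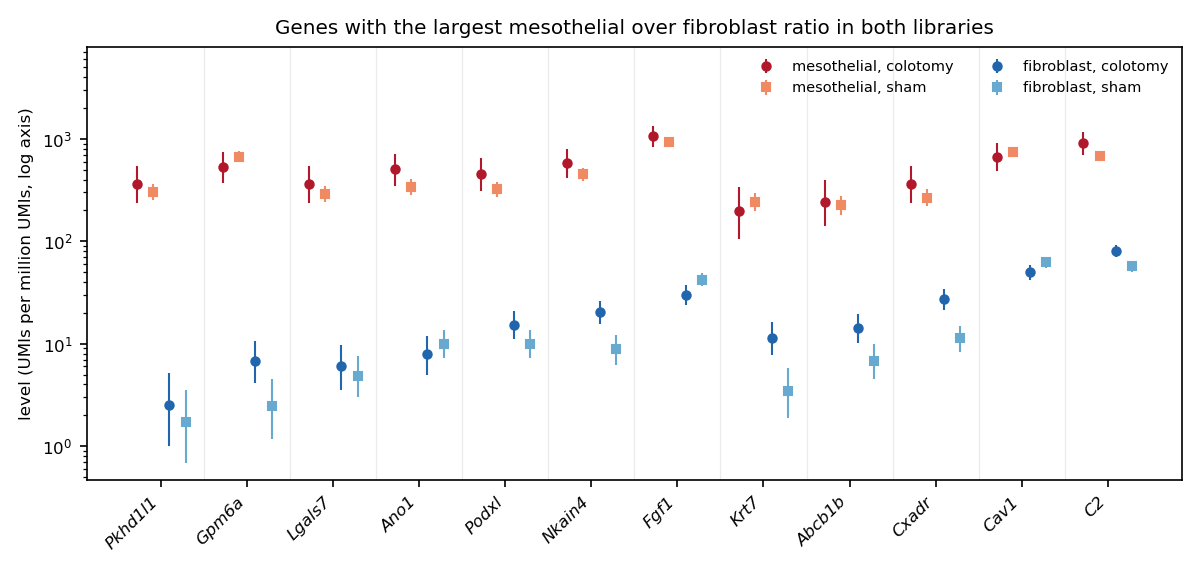
Levels of the 12 genes with the largest mesothelial over fibroblast ratio in both libraries, in CPM on a log axis, in mesothelial cells (red) and fibroblast cells (blue) of the colotomy (circles) and sham (squares) libraries. Bars are exact Poisson 95% intervals of 1 summed library each; every red symbol lies above both blue symbols of its gene, with C2 at 916 and 681 against 81.2 and 57.0 CPM.

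Several of the 12 serve the apical surface and cell contacts. Podxl (podocalyxin, a negatively charged sialomucin) had 458 CPM in colotomy members and 321 CPM in sham members, against 15.4 and 10.0 CPM in fibroblast cells. Cxadr, the coxsackievirus and adenovirus receptor of tight junctions, had 367 and 268 CPM, against 27.2 and 11.3 CPM. Ano1, a calcium-activated chloride channel that also marks interstitial cells of Cajal, had 504 and 341 CPM, against 7.87 and 10.0 CPM, while Kit, the receptor that defines those cells, was at or near 0 as given above. Fgf1, a heparin-binding growth factor, had 1069 and 932 CPM, against 30.1 and 42.3 CPM, with log2 ratios of 5.15 (4.67 to 5.63) and 4.46 (4.20 to 4.73).

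The list of junction and polarity genes gave the same direction. Of 17 members with enough UMIs in the colotomy library 10 were 2-fold higher and 1 lower, and of 18 in the sham library 11 were higher and 1 lower, with medians of 1.36 and 1.61. The shares over all genes were 12.6% and 7.07% higher, and 9.87% and 11.7% lower. Cldn15, a pore-forming claudin, had 168 and 170.3 CPM in members of the colotomy and sham libraries, against 19.0 and 6.85 CPM in fibroblast cells. F11r (junctional adhesion molecule A) had 214 and 112 CPM, against 45.4 and 10.5 CPM. Cdh11, a mesenchymal cadherin, was also higher in members, with 642 and 423 CPM against 227 and 65.8 CPM. The epithelial cadherin Cdh1 had 0 and 2 UMIs in members.

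Keratins are the intermediate filaments of epithelia, and simple-epithelial keratins mark mesothelium. Of the 15 keratins listed, 6 had enough UMIs in each library, and 3 of these were 2-fold higher in members of the colotomy library and 4 in the sham library, with 0 and 1 lower. For all genes the higher shares were 12.6% and 7.07%, and the lower shares 9.87% and 11.7%. Krt19 (chr11:100140810-100148665) had 397 CPM in members of the colotomy library and 513 CPM in those of the sham library, against 53.7 and 26.7 CPM in fibroblast cells. Krt7 (chr15:101411043-101430313) had 199 and 241 CPM, against 11.4 and 3.43 CPM. The partners Krt8 and Krt18, which pair in 1 filament, stood less far above fibroblasts: Krt8 had 519 and 382 CPM, against 302 and 109 CPM. Krt8 was also present in lymphocytes at 357 CPM in the colotomy library and 249 CPM in the sham library. Krt18 rested on 7 UMIs in colotomy members and 48 in sham members.

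Shares of cells with a keratin UMI depend on depth. After thinning to 1000 UMIs, Krt19 was seen in 9 of 26 colotomy members (34.6%, 17.2% to 55.7%) and 69 of 194 sham members (35.6%, 28.8% to 42.7%), against 28 of 700 fibroblast cells of the colotomy library, 2.36% of those of the sham library and 3.39% and 3.89% of lymphocytes. Wt1 was seen in 23.1% of colotomy members and 23.2% of sham members, against 10.7% and 5.15% of fibroblast cells and 0% and 0.501% of lymphocytes, where 0 of 59 colotomy lymphocytes, counted as at most 3, allows up to 5.08%. Without thinning, Krt19 was found in 19.7% of colotomy members and 52.0% of sham members, and Wt1 in 27.3% and 38.1%. Krt14, a keratin of stratified epithelium, gave 8 UMIs in colotomy members, 6 of them in 1 cell, and 7 in sham members, and none in fibroblast cells of either library.

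C3 RNA was found in nearly every member, and some other complement genes stood above fibroblasts. Of 28 complement genes 19 had enough UMIs in each library, and the members were 2-fold above fibroblast cells in 6 of these after colotomy and 6 after sham, and 2-fold below in 2 and 3 (2 of the colotomy genes, with no UMI in members, gave no value). The share of all genes 2-fold above was 12.6% in the colotomy library and 7.07% in the sham library, and 2-fold below 9.87% and 11.7%. The median log2 ratio of the complement list was 0.55 and 0.15, beside 0.09 and -0.04 over all genes. C3 (chr17:57203970-57228136), the central component on which all activation routes meet, had 6767 CPM in members of the colotomy library and 8059 CPM in those of the sham library, against 1871 and 2542 CPM in fibroblast cells. Its log2 ratio to fibroblasts was 1.85 (1.71 to 1.99) and 1.66 (1.61 to 1.72). At 1000 UMIs it was seen in 26 of 26 colotomy members and 193 of 194 sham members, against 58.4% and 77.7% of fibroblast cells and 15.3% and 9.32% of lymphocytes.

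**Figure D2:**
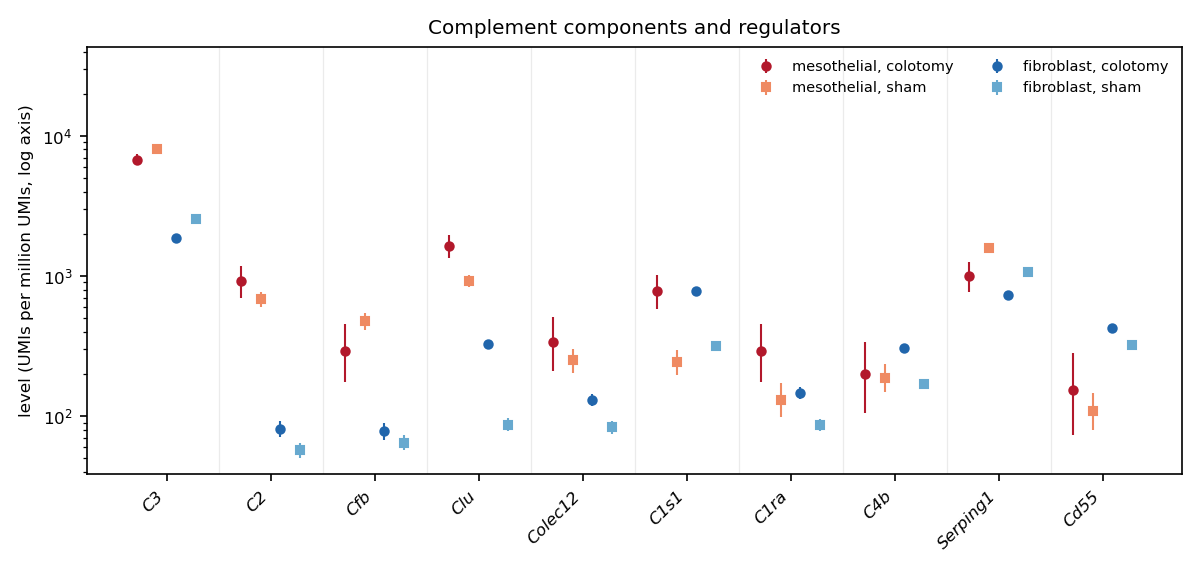
Levels of 10 complement genes in CPM on a log axis in mesothelial cells (red) and fibroblast cells (blue) of the colotomy (circles) and sham (squares) libraries, with exact Poisson 95% intervals of 1 summed library each. C3, C2, Cfb, Clu and Colec12 lie higher in both mesothelial sums, and Cd55 lies lower, at 153 and 109 against 426 and 322 CPM.

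The proteases that cut C3 were higher too. C2, the serine protease of the classical C3 convertase, had 916 and 681 CPM in members of the colotomy and sham libraries, against 81.2 and 57.0 CPM in fibroblast cells. Cfb, its counterpart in the alternative route, had 290.2 and 474 CPM, against 78.0 and 64.8 CPM. Clu (clusterin, a chaperone that also blocks the terminal complex) had 1634 and 922 CPM, against 329 and 86.9 CPM. C4b and the C1 inhibitor gene Serping1 were within 2-fold of fibroblast cells in both libraries, at 993 and 1593 CPM against 735 and 1066 CPM for the inhibitor. Cd55, the membrane factor that breaks up convertases, was lower in members, with 153 and 109 CPM against 426 and 322 CPM. C1qa, a macrophage product, had 244 and 63.2 CPM in members and 316 and 155 CPM in lymphocytes, so it was no higher than in cells that do not make it.

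Acute phase and antimicrobial genes were mostly not above fibroblasts. Of 15 counted in the colotomy library 1 was 2-fold higher in members and 3 lower, and of 12 in the sham library 2 and 6, with medians of -0.43 and -0.98. Beside these stand 12.6% and 7.07% of all genes higher, and 9.87% and 11.7% lower. The only acute phase or antimicrobial gene higher in both libraries was Slpi. Slpi, an inhibitor of neutrophil elastase, had 1604 CPM in members of the colotomy library and 2175 CPM in those of the sham library, against 389 and 42.3 CPM in fibroblast cells. In the colotomy library lymphocytes also held 1216 CPM of it, against 93.4 CPM in the sham library, so that the members stood clear of lymphocytes only in the sham library. Rarres2, which encodes the chemoattractant chemerin, had 1298 and 3719 CPM, against 284 and 520.0 CPM. Of the insulin-like growth factor binding proteins, Igfbp5 had 4017 and 1739 CPM, against 507 and 636 CPM, and Igfbp6 had 2780 and 4104 CPM, against 857 and 1079 CPM. Both were 2-fold higher in both libraries, and 5 of the 6 binding proteins had enough UMIs.

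Growth factors showed no common direction. Of 42 listed, 29 had enough UMIs in the colotomy library and 34 in the sham library, with 5 and 6 of them 2-fold higher in members, 8 and 9 lower, and medians of 0.08 and -0.04. Besides Fgf1, the members stood higher in Rspo1 (R-spondin 1, an enhancer of Wnt signalling) with 199 and 333 CPM, against 30.4 and 32.5 CPM, and in Fgf9 with 122 and 99.7 CPM, against 22.2 and 11.5 CPM. They stood lower in the Wnt antagonist Sfrp1, with 61.1 and 14.6 CPM against 693 and 197 CPM. Cytokines and chemokines were sparse in members: 1 of 16 counted genes was 2-fold higher after colotomy and 0 of 17 after sham, with 2 and 8 lower. Only 12 of the 16 gave a value. Genes without a value had no UMI in members and could not be called lower, here and in other lists of the colotomy library. Over all genes they were 1555 of 9227 in the colotomy library and 0 of 10475 in the sham library, where 9.87% and 11.7% were lower. Cxcl12, a chemokine of stromal cells, had 30.5 and 26.8 CPM, against 158 and 151 CPM.

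Mesothelium is known for an anticoagulant surface. Thbd (thrombomodulin, which turns thrombin towards protein C activation) had 428 CPM in colotomy members and 720.1 CPM in sham members, against 158 and 156 CPM in fibroblast cells. Over the 14 counted genes of coagulation and fibrinolysis, 2 and 1 were 2-fold higher and 2 and 5 lower, with medians of -0.37 and -0.13. Over all genes 12.6% and 7.07% were higher and 9.87% and 11.7% lower, so the higher counts of this list stand near those shares. The plasminogen activator Plat was within 2-fold, with 214 and 131 CPM against 264 and 125 CPM, and F3 (tissue factor), which starts clotting, had 0 and 2 UMIs in members against 173 and 349 in fibroblast cells. Genes of retinoid handling were split, with 4 of 8 counted 2-fold higher in members and 2 lower in the colotomy library, and 4 of 10 higher and 4 lower in the sham library. Aldh1a2, which makes retinoic acid, had 168 and 165 CPM, against 39.4 and 40.4 CPM, while its relative Aldh1a3 had 1 UMI in members of each library, against 128 and 197 in fibroblast cells. Ptgis (prostacyclin synthase) had 672 and 494 CPM, against 283 and 169 CPM.

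Other functions gave counts to be read against the background, where 12.6% of all genes in the colotomy library and 7.07% in the sham library were 2-fold higher in members and 9.87% and 11.7% lower. Among genes of prostanoid synthesis 3 of 7 counted were higher in each library, with 0 and 2 lower. Among genes of water and solute transport 2 of 9 were higher in the colotomy library and 5 of 10 in the sham library, with 1 lower in each. Interferon response genes were higher in 4 of 15 and 4 of 17, with none lower. Immediate early genes were lower in 6 of 16 and 9 of 16, against 0 and 1 higher. Contractile and mesenchymal transition genes were lower in 4 of 19 and 7 of 19 and higher in 1 and 0. Glycocalyx and lubrication genes had no stable direction in the colotomy library: of 8 counted, 6 gave a value, 1 was higher and 3 lower, and their median of -1.09 became 0.99 when 10 UMIs sufficed for a gene. In the sham library 2 of 8 were higher and 5 lower.

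Matrix genes set the members apart from fibroblasts in the other direction. Of the listed genes of interstitial collagen and matrix, 23 of 32 counted were 2-fold lower in members in the colotomy library and 21 of 31 in the sham library, with medians of -1.87 and -1.80 and 0 and 1 higher. Fn1 (fibronectin) had 580.4 and 139 CPM in members, against 2781 and 2209 CPM in fibroblast cells and 604 and 270.3 CPM in lymphocytes, so the members were not above lymphocytes. Mmp2, a gelatinase, had 61.1 and 53.5 CPM, against 1142 and 502 CPM. The 12 genes with the largest deficit by the same rule were Pi16, Pdgfra, Lgi2, Sfrp1, Mmp2, Cilp, Lpar1, Penk, Postn, Ebf2, Ltbp1 and Scara5, and their members' sums held 1 to 7 UMIs each in the colotomy library and 3 to 27 in the sham library. Pdgfra, the receptor that marks fibroblasts, had 1 UMI in all colotomy members and 11 in sham members (15.3 and 26.8 CPM, against 244 and 338 CPM).

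Basement membrane genes were split. In the colotomy library 12.6% of all genes were 2-fold higher in members and 9.87% lower, and in the sham library 7.07% and 11.7%. Of 16 counted basement membrane genes in the colotomy library 4 were 2-fold higher in members and 10 lower, and of 19 in the sham library 4 and 11. The collagen IV chain Col4a1 and the linker Nid1 were among the lower, Nid1 with 214 and 92.4 CPM against 683 and 761 CPM. Its relative Nid2 was higher, with 76.4 and 102 CPM against 11.1 and 19.8 CPM, and so was Col18a1, the source of endostatin, with 137 and 316 CPM against 54.4 and 69.7 CPM. Over the 14 sham members with fewer than 5 fibroblast UMIs the log2 ratio of Col18a1 was -0.21 (-5.51 to 2.28), against 2.18 over all. Agrn (agrin) was higher on 4 and 18 UMIs.

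**Figure D3:**
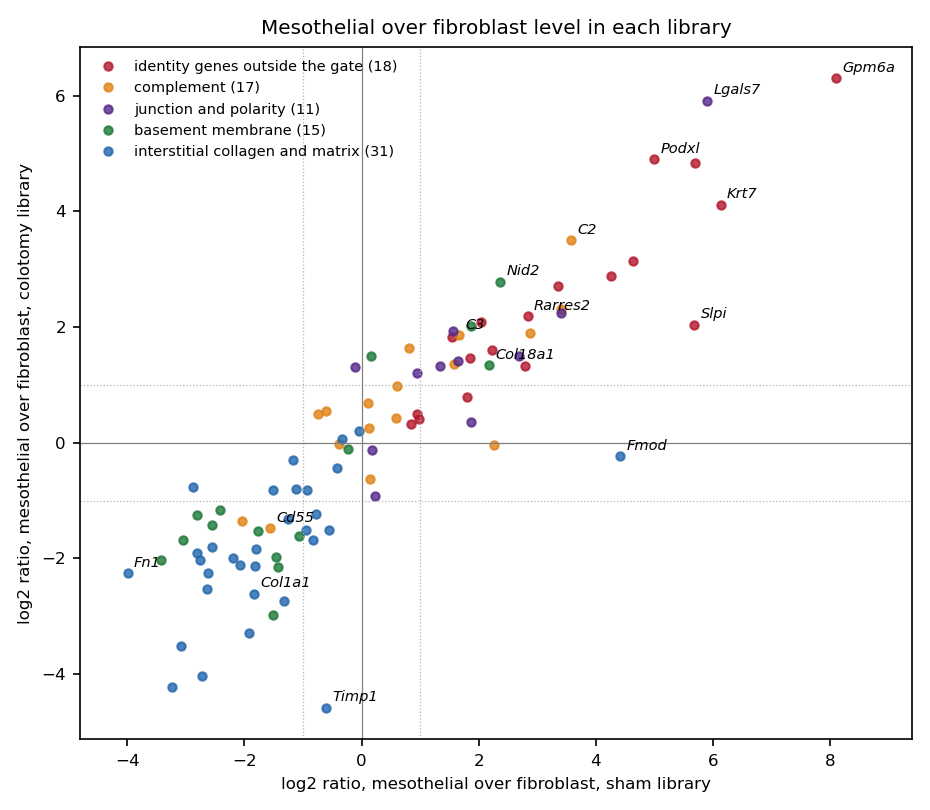
Log2 ratio of mesothelial over fibroblast level in the colotomy library (vertical axis) and the sham library (horizontal axis) for 92 genes of 5 lists that had 30 UMIs in each comparison; each point is a gene, colours give the list with its number of genes, and dotted lines mark 2-fold. Most identity genes lie in the upper right and most collagen and matrix genes in the lower left, while Fmod stands at -0.24 in the colotomy library and 4.41 in the sham library.

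Over all genes, 1165 were 2-fold higher and 911 lower in members of the colotomy library, and 741 higher and 1226 lower in those of the sham library. The higher genes shared by both were 289, or 24.8% of the colotomy list and 39.0% of the sham list, and 254 lower genes were shared (27.9% and 20.7%). Against fibroblast cells, 48 genes were 2-fold higher in colotomy members but 2-fold lower in sham members, and 11 the other way round. The colotomy counts are thin: 648 of the 1165 higher genes and 799 of the 911 lower genes rested on under 5 UMIs in members. With TMM scaling the colotomy split was 676 higher and 1460 lower.

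Sex-linked RNA separated the members of the libraries. Xist, the RNA of the inactive X chromosome, had 1757 CPM in colotomy members and 4.87 CPM in sham members, against 472 and 1.22 CPM in fibroblast cells. An Xist UMI was seen in 44 of 66 colotomy members (66.7%) and 1 of 223 sham members (0.448%), against 21.1% and 0.110% of fibroblast cells and 12.0% and 0.104% of epithelial cells. A UMI of any of 4 Y-linked genes was seen in 3 colotomy members (4.55%) and 68 sham members (30.5%), against 12.6% and 26.1% of fibroblast cells. The colotomy library thus held cells with Xist and cells with Y-linked RNA, the sham library almost none with Xist, and in the colotomy members Xist was the more frequent. Sex and operation cannot be told apart in the members, and only 2 colotomy members had a Y-linked UMI without Xist.

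**Figure D4:**
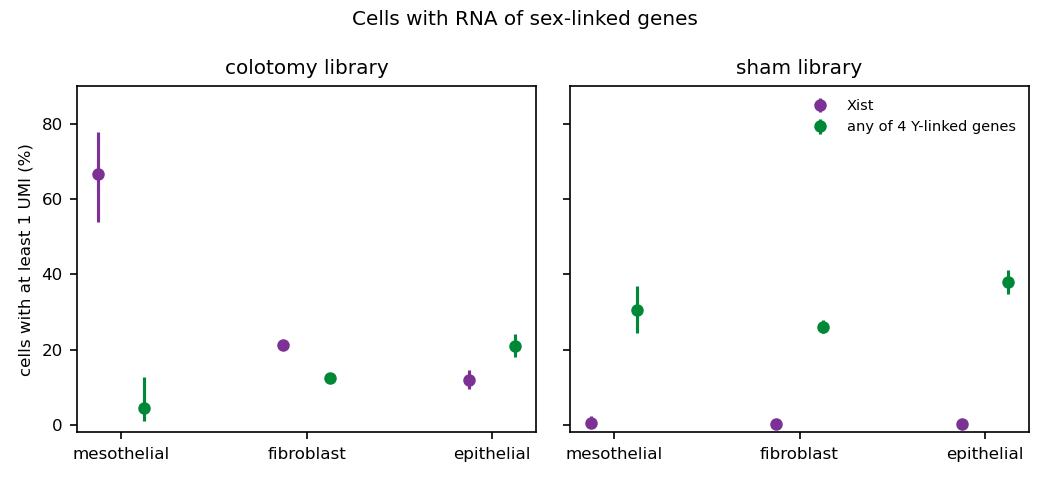
Share of cells with at least 1 UMI of Xist (purple) or of any of 4 Y-linked genes (green) in mesothelial, fibroblast and epithelial cells of the colotomy library (left) and the sham library (right), with exact Clopper-Pearson 95% intervals. In the colotomy library 66.7% of mesothelial cells held Xist, against 21.1% of fibroblast cells; in the sham library these were 0.448% and 0.110%.

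Hashtags gave a second view of origin. Hashtag 1 is paired with bowel and hashtag 2 with MAT in the submitters' reference table. The labels call these antibodies anti-human in one place and anti-mouse in another, so how well they stained mouse cells is uncertain. Hashtag 1 took a median of 75.8% of hashtag UMIs in colotomy members, against 85.3% in fibroblast cells and 87.4% in epithelial cells, which come from bowel. It took 28.6% in sham members, against 30.1% in fibroblast cells and 32.0% in epithelial cells, so in neither library did epithelial cells stand on a hashtag level of their own and no tissue was assigned. Under 80% of hashtag 1 lay 47 of 66 colotomy members (71.2%), against 858 of 3394 fibroblast cells (25.3%), and at 85% or more lay 3 members, against 1757 fibroblast cells. Among cells under 80%, Xist was seen in 34 of 47 members (72.3%), against 236 of 858 fibroblast cells (27.5%). Cells under 80% were not matched on hashtag share or depth, and the part of tissue of origin in the Xist values was not tested.

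The comparison of operations asks how the peritoneal lining differed on day 14 after the colon was cut. Of 2576 genes with 30 UMIs over both sums of members, 158 (6.13%) were 2-fold higher after colotomy and 324 (12.6%) lower, and 259 of the lower rested on under 5 UMIs in colotomy members. With TMM scaling the split was 64 higher and 486 lower. The 19 identity genes outside the gate held nearly the same level in both libraries, with 0 of them 2-fold higher, 1 lower (Rarres2) and a median of -0.13. The gate genes were within 2-fold too, with Upk3b at 2368 CPM in colotomy members and 2060 CPM in sham members. The rule asked for UMIs of these genes in every member, so their levels are a description and say nothing about identity.

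A protease of complement was higher in the colotomy library. C1s1, the protease of the C1 complex, had 779 CPM in colotomy members and 243 CPM in sham members, a log2 ratio of 1.68 (1.16 to 2.18), and fibroblast cells had 787 and 317 CPM, so that both cell types were higher in the colotomy library. At 1000 UMIs, C1s1 was seen in 16 of 26 colotomy members (61.5%, 40.6% to 79.8%) and 45 of 194 sham members (23.2%, 17.5% to 29.8%), and in 8.47% and 1.68% of lymphocytes. At 500 UMIs, where all 66 and 223 members enter, the shares were 28.8% (18.3% to 41.3%) and 14.8% (10.4% to 20.1%). Without thinning they were 56.1% and 33.2%. C3 was slightly lower after colotomy in both, with log2 ratios of -0.25 (-0.40 to -0.11) in members and -0.44 (-0.49 to -0.39) in fibroblast cells. Of the 13 complement genes counted in members, 3 were 2-fold higher (C1qa, C1ra and C1s1) and 1 lower (C1rb), beside 6.13% and 12.6% of all 2576 genes. C1qa, a macrophage product, stood below the lymphocyte level in members of both libraries, as given above. In fibroblast cells 6 and 3 of 24 complement genes were higher and lower, where 5.89% and 5.59% of all 11520 genes were. C1ra, C1rb and C1s1 have near copies in the mouse genome, among which reads can be split, and their values are uncertain to that extent.

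**Figure D5:**
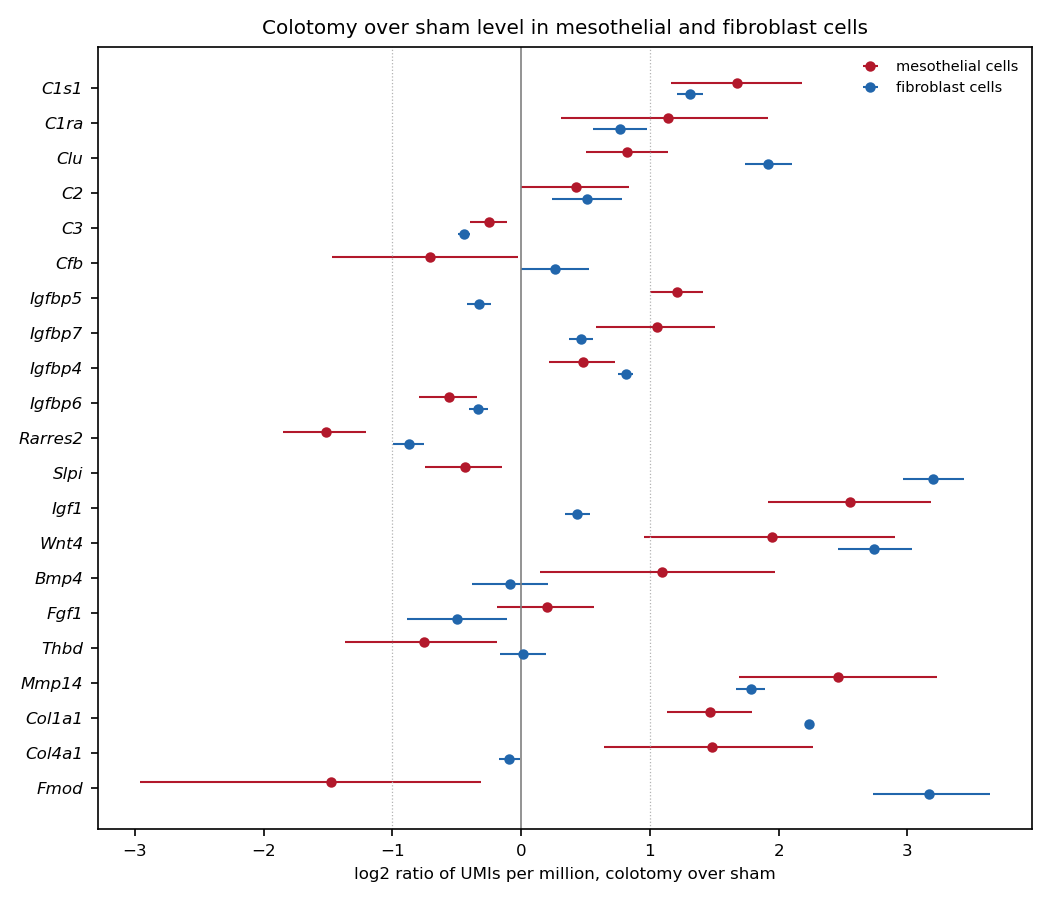
Log2 ratio of level in the colotomy library over the sham library for 21 secreted, complement and matrix genes in mesothelial cells (red) and fibroblast cells (blue), with exact conditional binomial 95% intervals that cover counting error only; dotted lines mark 2-fold. C1s1, Igfbp5, Igf1 and Col4a1 lie to the right in mesothelial cells, and Rarres2 lies to the left. Fmod, Slpi and Igfbp5 are among the genes that lie on opposite sides in the 2 cell types.

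Binding proteins and growth factors differed gene by gene. Igfbp5 (chr1:72857932-72874884), a matrix-bound carrier of IGFs, had 4017 CPM in colotomy members and 1739 CPM in sham members, a log2 ratio of 1.21 (1.00 to 1.41), and the fibroblast ratio was -0.33 (-0.42 to -0.23). Igf1 itself had 657 and 112 CPM in members, against 579 and 427 CPM in fibroblast cells, so the members were near fibroblasts after colotomy and below them after sham. Its log2 ratio between operations was 2.55 (1.92 to 3.19) in members, with a UMI in 26 of 66 colotomy members and 24 of 223 sham members. Rarres2 had 1298 CPM in colotomy members and 3719 CPM in sham members, a log2 ratio of -1.52 (-1.85 to -1.20), and -0.87 (-0.99 to -0.76) in fibroblast cells. Bmp4 and Wnt4 were 2-fold higher in colotomy members on 15 and 16 UMIs, and Wnt4 was also higher in fibroblast cells, with a log2 ratio of 2.74 (2.46 to 3.03).

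Among matrix genes counted in members, 8 of 22 were 2-fold higher after colotomy and 1 lower, with a median of 0.60. Over all genes in members 6.13% were higher and 12.6% lower, with a median of -0.10. In fibroblast cells 17 of 32 matrix genes were higher and 0 lower, with a median of 1.08, against 5.89% and 5.59% of all genes. No lymphocyte level was taken off in these counts. Col1a1 had 1695 CPM in colotomy members and 613 CPM in sham members, but lymphocytes held 1147 and 146 CPM. After the lymphocyte level was taken off, its log2 ratio in members was 0.23, against 1.47 before. Mmp14, a membrane collagenase, had 443 CPM in colotomy members and 80.3 CPM in sham members, against 158 and 20.3 CPM in lymphocytes. Col4a1 had 305 and 109 CPM in members, a log2 ratio of 1.48 (0.64 to 2.27), while fibroblast cells differed little (722 and 770.3 CPM). Fmod (fibromodulin, a collagen-binding proteoglycan) had 91.6 CPM in colotomy members and 255 CPM in sham members, on 6 and 105 UMIs, whereas fibroblast cells had 108 and 12.0 CPM.

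Single genes were named by their colotomy over sham ratio, with at least 50 UMIs asked for in the higher library. In the smaller colotomy sum this asks for a higher level than in the sham sum. It left 33 eligible genes with colotomy higher and 374 with sham higher, so the lists for each direction are not comparable. Igf1 and Mmp14, both more than 2-fold higher in colotomy members as given above, had too few UMIs to be named. By ratio, the 15 highest of the 33 were Xist, C1s1, Igfbp5, Igfbp7, Apoe, Clu, Serpinh1, Txnip, Gas1, Igfbp4, Csrp2, C2, Lrrn4, Cavin1 and B2m. The first 4 of these reached 2-fold. With TMM scaling Igfbp5, at a log2 ratio of 0.96, and Igfbp7, at 0.81, no longer did. Lrrn4 is a gate gene that chose the members, so its place among the 15 highest is a description and not a result. Igfbp7, a secreted binding protein of vessels and stroma, had 825 CPM in colotomy members and 397 CPM in sham members, and 699 and 506 CPM in fibroblast cells. The 15 with the smallest ratio were Pet100, Snrnp27, Ndufa11, Fmo2, Ppp2r5a, Tmem258, Zfand6, Ube2v1, Sppl2a, Ndufb9, Anapc13, Gabarapl1, Anapc5, Selenom and Cnpy2, with 1 to 7 UMIs each in colotomy members. Fmo2, a flavin monooxygenase, had 107 CPM in colotomy members (7 UMIs) and 528 CPM in sham members, a log2 ratio of -2.30 (-3.64 to -1.24), and in fibroblast cells 204 and 252 CPM. Gabarapl1, of the autophagy machinery, had 76.4 CPM on 5 UMIs in colotomy members and 285 CPM in sham members. Interferon response and MHC genes gave no 2-fold higher gene after colotomy among 8 and 10 counted, with 1 and 0 lower. Over all genes 6.13% were higher and 12.6% lower, so counts this small stand near those shares.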

How the data were processed

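Single-cell RNA-seq of pooled bowel and mesenteric adipose tissue was analysed as 1 colotomy and 1 sham library. The deposited values were UMI counts per gene (32285 genes and 2 hashtags) made with Cell Ranger 6.0.0, per the file headers; the genome mm10, STAR 2.5.1b and Seurat stand in the submitters' processing notes, with no role given. The authors deposited barcodes already called as cells, 15547 for colotomy and 44814 for sham, of which 9246 and 42143 passed the thresholds given above.

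Counts were summed over the cells of a class in each library, divided by the sum over all genes and given per 1000000 (CPM; Python 3.11.15, numpy 2.4.6, scipy 1.17.1, pandas 2.3.3). Ratios carry exact conditional binomial intervals, levels exact Poisson and shares Clopper-Pearson intervals (95%), for counting error only. A gene was counted with at least 30 UMIs over both sums, and called at 2-fold; a sum of 0 was set to 3 counts for a bound, and left without a value where that bound pointed the wrong way. Lymphocytes were kept cells with Ptprc and at least 3 UMIs of T and B cell genes, of which at most 4000 entered shares of cells. The members, lists and rules were chosen with earlier results of these data known. Named genes were the 12 with the largest and smallest mesothelial over fibroblast ratio (the smaller of both libraries, at least 100 CPM in the higher cell type) and the 15 furthest each way between colotomy and sham, with at least 50 UMIs and 100 CPM in the higher library and a level there not below that of its other kept cells. Mitochondrial, ribosomal, haemoglobin, immunoglobulin and unnamed genes were left out of this naming, and list members are named by role. With 1 library per operation no model was fitted and no p-value is given. No doublet caller was run. The gate asks for no Ptprc, Epcam or Pecam1, which does not exclude a doublet with a fibroblast cell. Alternatives included other gates, scalings (TMM from edgeR 4.0.16 in R 4.3.3) and thresholds, and the calculation was tested on simulated counts. One gene of the complement list is not reported here.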

Additional observations from a re-analysis of the deposited data

Results flagged for a closer look

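Fmod, which encodes the collagen-binding proteoglycan fibromodulin, moved at least 2-fold in opposite directions in the 2 cell types and stands out for that reason. Its log2 ratio of colotomy over sham was -1.48 in mesothelial cells and 3.17 in fibroblast cells, and the difference was not tested, as each value comes from 1 library per operation. The members held 91.6 CPM in the colotomy library, on 6 UMIs, and 255 CPM in the sham library, on 105 UMIs, while fibroblast cells held 108 and 12.0 CPM.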

How the results depend on the processing

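No paired analysis was possible because each operation has 1 library and the labels carry no replicate numbers. Of the recomputed log2 ratios of genes, 2386 stayed near the main value, 184 moved and 2 turned. To turn, a ratio had to change sign from a main value of at least 2-fold. Those 2 were Timp1 (colotomy over sham), to 0.85 with a gate of 2 UMIs, and Col18a1 (mesothelial over fibroblast, sham), to -0.21 over the 14 members left without 5 fibroblast UMIs. Sign changes of smaller ratios are in the other counts. Serping1 (mesothelial over fibroblast, sham), for example, ran from -0.68 to 0.71. The glycocalyx median in the colotomy library turned to 0.99 when 10 UMIs sufficed for a gene. The cause was not tested.

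Shares of members, colotomy then sham, were 0.998% and 0.662% with 1000 UMIs and 500 genes required, 0.281% and 0.354% at a gate of 5 UMIs, 1.22% and 0.650% at a gate of 2, 0.0649% and 0.0332% without members of 5 fibroblast UMIs, 0.636% (sham) thinned to 1000 UMIs, and 0.443% and 0.306% thinned to 500. The thinned values were chosen after seeing the data.

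Counts of 2-fold genes followed the thresholds. For mesothelial over fibroblast cells in the colotomy library they were 580 higher and 595 lower with 1000 UMIs and 500 genes required, 457 lower at a gate of 5, 676 higher and 1460 lower with TMM, 1947 higher at 10 UMIs and 327 higher at 100 UMIs per gene, 2072 higher and 1663 lower at 1.5-fold, and 497 higher without each gene's top cell. In the sham library they were 1850 higher and 248 lower without members of 5 fibroblast UMIs, 1283 higher at 10 UMIs, 282 higher and 634 lower at 100 UMIs, and 1732 higher and 2237 lower at 1.5-fold. For colotomy over sham members they were 64 higher with TMM, 756 higher and 870 lower at 10 UMIs, 10 and 49 at 100 UMIs, 427 and 659 at 1.5-fold, 82 and 141 above the median hashtag 2 share, and 97 and 541 without each gene's top cell.

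Over all alternatives run, the log2 ratio of colotomy over sham members stayed between 1.44 and 1.80 for C1s1, 2.31 and 2.91 for Igf1, 0.96 and 1.42 for Igfbp5, and -1.80 and -1.36 for Rarres2. With the lymphocyte level taken off, that of Slpi was -2.42. Subtraction of free RNA was not run, since the sham library has no barcode below 500 UMIs. The colotomy members with Y-linked RNA and no Xist, those with fewer than 5 fibroblast UMIs, and those below the median hashtag 2 share were under 10 cells each and gave no values. The 65468 UMIs of colotomy members limit every gene below about 45.8 CPM.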

Other observations

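A few member values rested on 1 cell. Of 57 Ighg1 UMIs in colotomy members 43 were in 1 cell, as were 22 of 32 Retnla UMIs, and 488 of 889 Igha UMIs in sham members were in 1 cell. Igha and Ighg1 are immunoglobulin genes of plasma cells.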
